A study of Mus musculus with 4 samples.

Results

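TRBV2 is a variable segment of the mouse T-cell receptor beta locus, called V beta 4 in the older nomenclature. Its receptors were taken as the TRB contigs with TRBV2 as V segment in barcodes called as cells, where the contig was of high confidence, full length and productive. There were 343 such contigs in NOD 1, 143 in NOD 2, 70 in Tet2KO NOD 1 and 67 in Tet2KO NOD 2, in all 623 of 13709 productive TRB contigs. Of their cells, 280, 120, 60 and 57 had this contig as the only productive TRB and at least 1 productive TRA, and they formed 241, 101, 42 and 35 clonotypes, 419 of 7179. Cells were put in 1 clonotype where V, J and the CDR3 bases matched in both TRA and TRB. TRBV2 was selected on its share of clonotypes by genotype, so that share is described here and not tested.

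The 4 libraries were made from pancreatic islets of NOD mice, a strain that develops autoimmune diabetes, and of Tet2KO NOD mice, which lack a methylcytosine dioxygenase. Each library pooled islets of 4 to 6 animals. The Tet2-/- allele was bought on a B6 background and had been crossed to NOD for more than 14 generations, and the labels name no promoter or cell type that limits the loss of Tet2. Mice were 10 to 13 weeks old by the design text, while the protocol counts the same weeks from an event abbreviated BTM and mentions donors for bone marrow transplant, so age and transplantation were not settled. The level of Tet2 itself was not analysed here. Pools are the replicates, and the exact permutation p-values rest on the spread between pools. In the edgeR fits of segments the spread beyond counting error was estimated near 0. The common dispersion was 0.00022 against other TRBV and 9.8e-05 between genotypes, so those p-values measure mostly counting error.

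A beta chain is assembled in the thymus from a V, a D and a J segment, with bases lost and added at the joints. The first and second loops (CDR1 and CDR2) are coded by the V segment and mostly contact the presenting MHC molecule, while the third loop (CDR3) spans the joints, mostly contacts the peptide and is specific to a clone. T cells with receptors for beta cell peptides gather in NOD islets, and a receptor's alpha partner, J segment and CDR3 together set what it binds.

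TRBV2 lies at 41047340 to 41047995 on the plus strand of chromosome 6 (GRCm38), upstream of both D-J clusters, with a leader exon at 41047340 to 41047604 and the exon coding the variable domain at 41047701 to 41047995. The germline pieces that the receptors below are built from are shown in lower case, as GRCm38 has them. CDR1 and CDR2 are the parts every TRBV2 receptor shares, and the end of the V segment, the second D segment and the start of TRBJ2-7 are pieces that several of the CDR3 loops described below contain.
TRBV2 CDR1, chr6:41047787-41047801: ctaggccacaatgct
TRBV2 CDR2, chr6:41047853-41047870: tacagctatcaaaaactt
TRBV2 end within the CDR3, chr6:41047979-41047995: tgtgccagcagccaaga
TRBD2, chr6:41542163-41542176: gggactgggggggc
TRBJ2-7 start within the CDR3, chr6:41543810-41543828: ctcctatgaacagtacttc

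The label held up on these sequences. All 623 TRBV2 contigs carried the GRCm38 sequence from framework 1 through framework 3, and 621 were annotated with exactly the CDR1 and CDR2 above. No contig differed from the reference over this stretch.

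TRBV2 made up 6.71% of clonotypes in NOD 1 (Wilson 95% interval 5.93 to 7.57), 5.97% in NOD 2 (4.93 to 7.20), 4.67% in Tet2KO NOD 1 (3.47 to 6.25) and 3.52% in Tet2KO NOD 2 (2.55 to 4.86), from the highest to the lowest. Neighbours in that order overlapped in their intervals, which cover counting error only. Among 22 TRBV it ranked 7, 8, 11 and 12 by number of clonotypes. Counted by paired cells the shares were 5.03%, 4.85%, 3.74% and 4.09%, and the order of the Tet2KO NOD libraries was then the other way round. The 3 segments whose shares over the 4 libraries were most like those of TRBV2 were TRBV20, TRBV13-1 and TRBV13-3, at root mean square differences of 0.294, 0.305 and 0.315 in log2 of share over mean share, among 17 TRBV compared.

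TRBV2 contigs were read with few molecules. The median number of UMIs (unique molecular identifiers, one per captured transcript) of a TRBV2 contig was 4 in NOD 1 and 6 in each of the other libraries, against 11, 13, 10 and 11 for contigs of other TRBV. TRBV2 had the lowest median, or shared it, in NOD 1, NOD 2 and Tet2KO NOD 2 and the second lowest in Tet2KO NOD 1. The TRA contigs of the same cells did not show this, with medians of 5, 7, 6 and 6 UMIs beside 6, 7, 5 and 6 in cells of other TRBV. Among cells with a TRA, 10.3%, 5.97%, 4.92% and 0% of TRBV2 contigs rested on 1 UMI, against 1.19%, 0.578%, 1.91% and 1.03% of others. Whether TRBV2 cells were missed for this reason, and whether evenly in the 4 libraries, was not tested. The libraries held 220516119, 140478435, 114106599 and 85137263 reads in contigs.

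The J partner with the highest mean share over the 4 libraries was TRBJ2-7, at 14.1%, with TRBJ2-3 next at 13.9%, and the order differed between genotypes. TRBJ2-7, the last J segment of the second cluster, was joined to 50 of 241 TRBV2 clonotypes in NOD 1 (20.7%), 20 of 101 in NOD 2 (19.8%), 3 of 42 in Tet2KO NOD 1 (7.14%) and 3 of 35 in Tet2KO NOD 2 (8.57%). Both NOD libraries were high, both Tet2KO NOD libraries were low, and the genotypes did not overlap, as in 19 of 50 segments tested within TRBV2 (38%). Clonotypes of other TRBV used TRBJ2-7 in 19.98%, 22.7%, 20.1% and 20.6%, with no such gap. Wilson 95% intervals for TRBV2 were 16.1 to 26.3, 13.2 to 28.6, 2.46 to 19.0 and 2.96 to 22.4%, so the Tet2KO NOD values rest on 3 clonotypes each. The genotype difference within TRBV2 was a log2 fold change of -1.38 (approximate SE 0.11) and did not pass the test (edgeR quasi-likelihood test, Benjamini-Hochberg adjusted p = 0.25, range 0.101 to 0.996 over the alternatives). The test of whether it differed from that in other TRBV gave a log2 difference of -1.36 (approximate SE 0.34, edgeR adjusted p = 0.41, range 0.0746 to 0.923). These standard errors come from the fit and are smaller than the counting error of 3 clonotypes would give.

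**Figure D1:**
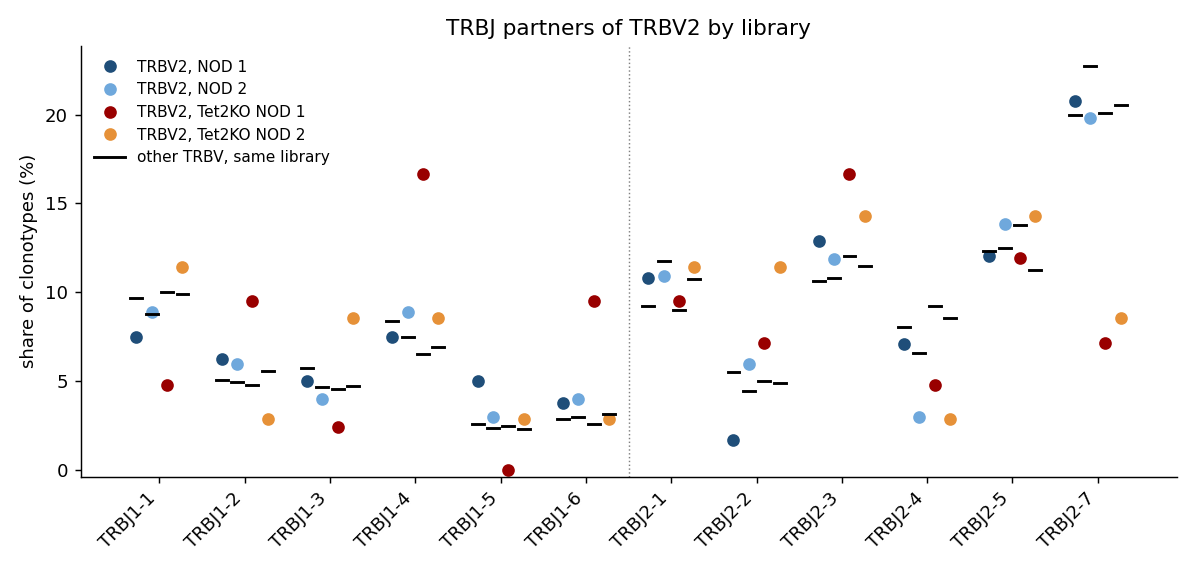
Share of clonotypes (%) joined to each of the 12 TRBJ segments, with TRBV2 as a coloured point for each library and the clonotypes of other TRBV in the same library as a black bar. The dotted line separates the TRBJ1 and TRBJ2 clusters. At TRBJ2-7 the NOD points lie at 20.7% and 19.8% and the Tet2KO NOD points at 7.14% and 8.57%.

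The 3 TRBJ that followed TRBJ2-7 by mean share in TRBV2 were TRBJ2-3, TRBJ2-5 and TRBJ2-1. TRBJ2-3 was joined to 12.9%, 11.9%, 16.7% and 14.3% of TRBV2 clonotypes, above other TRBV in each library (10.6%, 10.8%, 12.0% and 11.5%), and the log2 difference of 0.27 (SE 0.19) did not pass the test (edgeR, adjusted p = 0.84). TRBJ2-5 had 12.0%, 13.9%, 11.9% and 14.3% and TRBJ2-1 had 10.8%, 10.9%, 9.52% and 11.4%, above other TRBV in 2 and 3 of the 4 libraries. The remaining 8 segments had mean shares from 2.70% (TRBJ1-5) to 10.4% (TRBJ1-4). TRBJ2-2 went against TRBJ2-7 in its values, at 1.66% and 5.94% in the NOD pools and 7.14% and 11.4% in the Tet2KO ones. These came from 4, 6, 3 and 4 clonotypes, and 38% of the 50 segments tested within TRBV2 likewise did not overlap. Other TRBV had 5.49%, 4.46%, 5.02% and 4.91%. The TRBJ2-2 genotype difference in TRBV2 minus that in other TRBV was 1.69 on the log2 scale (SE 0.76, edgeR adjusted p = 0.41). It was 0.46 without NOD 1 and 2.59 without NOD 2. Over all 12 segments, TRBJ usage was most like that of TRBV31, TRBV19 and TRBV29, with 9.65%, 10.3% and 12.2% of clonotypes differing in J segment (total variation distance of mean shares over 4 libraries, 17 TRBV compared).

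Taken by cluster, TRBV2 used TRBJ2 less than other TRBV did, and TRBJ1 more. The TRBJ2 share was 65.1%, 65.3%, 57.1% and 62.9% in TRBV2 and 65.7%, 68.8%, 69.1% and 67.5% in other TRBV. The difference was below 0 in 4 of 4 libraries and averaged -5.17 percentage points ± 4.83 (SD, n = 4, exact two-sided sign-flip p = 0.125, the smallest that 4 libraries allow). It ranged from -0.557 points in NOD 1 to -11.9 in Tet2KO NOD 1, averaged -2.91 without Tet2KO NOD 1 and was -12.5 with each cell counted once. Between genotypes the TRBJ2 share in TRBV2 was 5.25 points lower in Tet2KO NOD (NOD 65.2% ± 0.14, Tet2KO NOD 60% ± 4.04, SD, n = 2 pools each, exact permutation p = 0.333, the smallest that 2 against 2 allow). That difference was -2.39 points without Tet2KO NOD 1, -8.10 without Tet2KO NOD 2 and -12.7 with each cell counted once.

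A D segment was named for few receptors of either kind. TRBD1 was named in 12.0%, 14.9%, 7.14% and 8.57% of TRBV2 clonotypes and in 16.3%, 14.4%, 15.4% and 16.2% of others (log2 difference -0.40, SE 0.19, edgeR adjusted p = 0.58). TRBD2, which lies between the clusters and can only join TRBJ2, was named in 28 of 241, 11 of 101, 1 of 42 and 1 of 35 TRBV2 clonotypes, or 11.6%, 10.9%, 2.38% and 2.86%, beside 7.22%, 9.05%, 7.35% and 8.14% in others. The genotypes did not overlap in TRBV2, as in 38% of the 50 segments tested there. The genotype difference was -2.08 on the log2 scale (approximate SE 0.51, edgeR adjusted p = 0.25, range 0.101 to 0.996 over the alternatives), and its difference from that in other TRBV was -2.12 (approximate SE 0.73, adjusted p = 0.41). With each cell counted once these were -1.07 and -1.18.

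The bases themselves gave another picture of TRBD2. The stretch CTGGGG occurs in TRBD2 and not in TRBD1, and was searched for on the coding strand of the whole CDR3. It was present in 23.7%, 24.8%, 7.14% and 31.4% of TRBV2 clonotypes and in 20.5%, 21.0%, 19.4% and 20.8% of others. Tet2KO NOD 1 was low and Tet2KO NOD 2 was the highest of the 4, so the low TRBD2 calls were matched by the bases in only 1 of the Tet2KO NOD libraries. CAGGGG, which occurs in TRBD1 and not in TRBD2, was present in 11.6%, 16.8%, 14.3% and 14.3% of TRBV2 clonotypes and in 17.8%, 17.4%, 16.2% and 18.7% of others. A match to 6 bases is a description and can arise without the D segment.

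The CDR3 loops of TRBV2 were longer than those of other TRBV. The mean length was 14.48, 14.70, 14.50 and 14.74 residues in TRBV2 in the order of libraries above, against 13.95, 13.97, 13.92 and 14.00 in others. The difference was positive in 4 of 4 libraries, at 0.64 residues ± 0.11 (SD, n = 4, exact two-sided sign-flip p = 0.125, the smallest possible). The median was 15 residues in TRBV2 and 14 in other TRBV in each library. Loops of 12 residues or fewer made up 8.30%, 4.95%, 4.76% and 0% of TRBV2 clonotypes, against 15.5%, 15.3%, 18.3% and 14.5% of others, where 0 of 35 allows a share of up to 8.57%. Loops of 15 residues or more made up 51.5%, 57.4%, 52.4% and 54.3%, against 35.3%, 35.6%, 34.3% and 35.6%. Genotypes differed in mean TRBV2 length by 0.031 residues (NOD 14.59 ± 0.16, Tet2KO NOD 14.62 ± 0.17, SD, n = 2 pools each, exact permutation p = 0.667), which is less than the spread between pools.

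**Figure D2:**
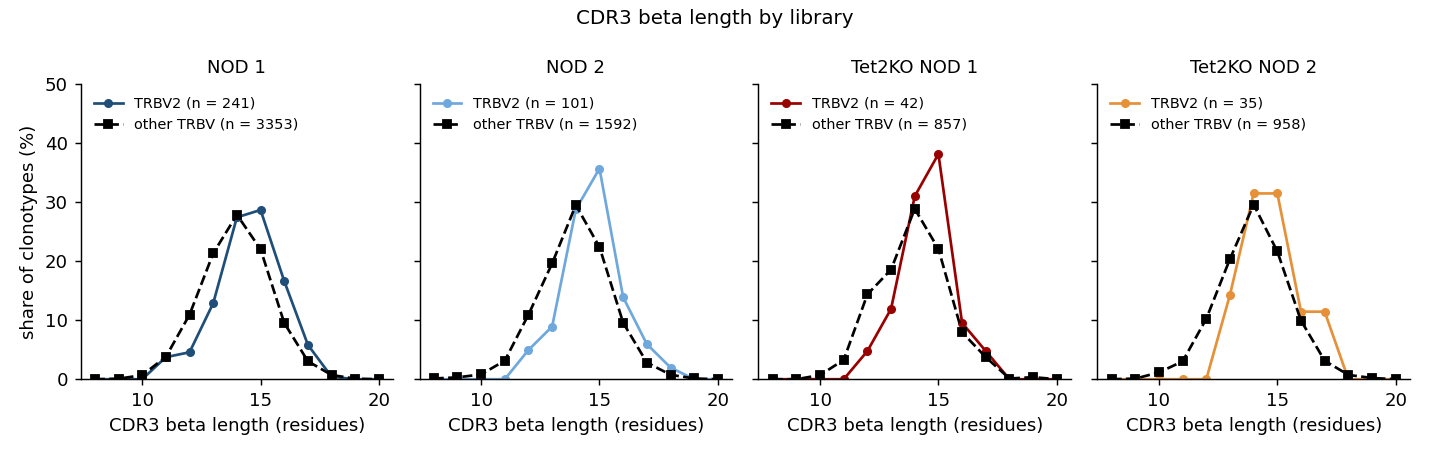
Distribution of CDR3 beta length in residues (x axis) as share of clonotypes in % (y axis), in 1 panel for each library, for TRBV2 (coloured line, circles) and other TRBV (black dashed line, squares). Lengths from 8 to 20 are drawn. The TRBV2 line lies to the right of the other in each panel, with medians of 15 and 14 residues.

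Most of that length lay in bases of the V segment. TRBV2 brings 17 germline bases into the CDR3, printed above, and other TRBV of the same libraries brought 16.6 on average. TRBV2 clonotypes matched the germline end over 15.5, 15.6, 15.6 and 15.9 bases, other TRBV over 13.6, 13.6, 13.6 and 13.6. The difference was 2.05 bases ± 0.20 (SD, n = 4), while the J match differed by 0.51 ± 0.39 bases and the middle, the bases matching neither end, by -0.58 ± 0.32. All 17 bases were matched in 207 of 419 TRBV2 clonotypes (49.4%). In single libraries the full match was found in 48.5%, 49.5%, 50.0% and 54.3% of TRBV2 clonotypes and in 19.3%, 17.2%, 19.1% and 17.6% of others. The medians by segment were 16 bases for TRBV2 and TRBV5 and 11 to 14 for the other 18 TRBV that could be matched. Matched lengths include chance matches of added bases, and the clonotypes of 2 TRBV names without a germline end were left out, which kept 84.2 to 85.8% of other clonotypes.

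**Figure D3:**
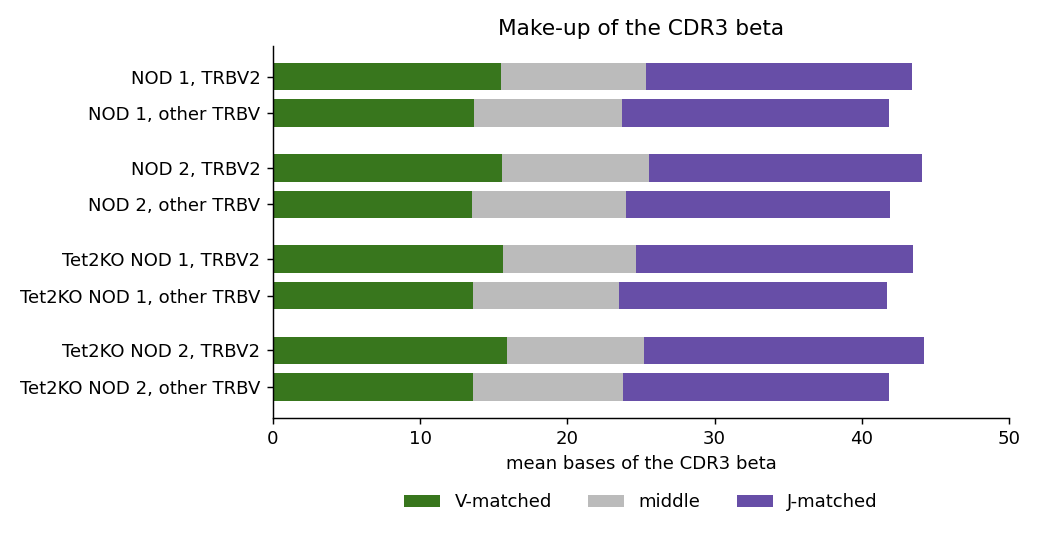
Mean number of CDR3 beta bases that match the germline V end (green), match the germline J start (purple) or lie between them (grey), for TRBV2 and other TRBV in each library. The green part is longer in TRBV2, at 15.5 to 15.9 bases against 13.6, and the grey part is shorter.

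The germline end codes cysteine, alanine, serine, serine and glutamine, and its last 2 bases, ga, begin a codon for aspartate or glutamate, both acidic. Glutamine stood at residue 5 in 323 of 419 TRBV2 clonotypes (77.1%), and an acidic residue at residue 6 in 55.6%, 55.4%, 59.5% and 57.1% of them by library. In other TRBV residue 6 was acidic in 18.6%, 17.2%, 18.6% and 17.8%. Every codon that begins with ga codes one of these residues, so each of the 207 clonotypes with all 17 bases has one there by construction, and 28 of the other 212 did too. Hydropathy of residues 6 and 7, a measure on the Kyte-Doolittle scale where lower values are more water-loving and which bears on self-reactivity in earlier work, was -1.47, -1.54, -1.89 and -1.42 in TRBV2 and -1.13, -1.14, -1.21 and -1.18 in others. It was lower in TRBV2 in 4 of 4 libraries, by -0.415 units ± 0.191 (SD, n = 4, exact sign-flip p = 0.125, the smallest possible), at a place that the V segment codes in part. Genotypes differed by -0.15 units in TRBV2 (NOD -1.51 ± 0.05, Tet2KO NOD -1.65 ± 0.33, SD, n = 2 pools each, exact permutation p = 1).

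Short words in the middle of the loop, from residue 6 to the sixth from the end, were compared next. The 5 words in most TRBV2 clonotypes were DWG in 29, GGA in 26, LGG in 24, TGG in 23 and WGG in 19 of 419, or 6.92%, 6.21%, 5.73%, 5.49% and 4.53%, against 3.54%, 4.01%, 3.57%, 4.96% and 2.94% of other TRBV. DWG, aspartate, tryptophan and glycine, was in 8.71% and 5.94% of TRBV2 clonotypes in NOD 1 and NOD 2 and in 2.38% and 2.86% in Tet2KO NOD 1 and Tet2KO NOD 2, beside 3.49%, 3.33%, 4.08% and 3.55% of others. Its log2 difference was 0.96 (SE 0.37), with an adjusted p of 0.23 in edgeR's quasi-likelihood test. None of 18 words tested passed (0%), and 1 of 18 (5.56%) had an unadjusted p below 0.05, as in DESeq2. The DWG difference rested on NOD 1, since without it the log2 value was 0.33 (edgeR adjusted p = 0.92), and it was 0.41 with TMM factors and 0.55 with each cell counted once. Without Tet2KO NOD 1 it was 1.10 (adjusted p = 0.043). The filter on expected counts also left out words that are rare in other TRBV. With no filter 2 words were called in edgeR's test, both higher in TRBV2. They were DLG, in 10, 4, 0 and 2 TRBV2 clonotypes or 3.82% against 0.163% of others (log2 difference 4.41, adjusted p = 2.8e-07), and EGG, in 8, 4, 2 and 0 or 3.34% against 0.533% (2.62, adjusted p = 0.021). Both begin with an acidic residue, and the words were read from residue 6, which the TRBV2 germline end codes in part. The test cannot separate these words from that germline end, so no conclusion is drawn from it. DLG was in 0% of TRBV2 and 0.583% of others in Tet2KO NOD 1, and EGG in 0% and 0.626% in Tet2KO NOD 2. Each was above others in the remaining libraries.

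No alpha partner set TRBV2 apart from other TRBV in the test. Of 78 TRBJ, TRBD, TRAV and TRAJ segments tested between TRBV2 and other TRBV, none passed at an adjusted p of 0.05 (0%) in edgeR's quasi-likelihood test or in DESeq2. In edgeR 6 of 78 (7.69%) had an unadjusted p below 0.05, of which 3 were higher in TRBV2, and in DESeq2 none had. Of the 78, 2 (2.56%) were above other TRBV in 4 of 4 libraries, TRAJ31 and TRBJ2-3, and 8 (10.3%) were below, among them TRBJ2-4, TRAJ17 and TRAJ18. On simulated data of this comparison, 29.3% of segments changed 2-fold and 65.5% of those changed 3-fold were recovered.

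The 5 leading TRAV by mean share were TRAV5-4, TRAV6N-7, TRAV21-DV12, TRAV16N and TRAV5N-4. TRAV21-DV12, which also serves the delta chain, was found in 9 of 241, 10 of 101, 2 of 42 and 1 of 35 TRBV2 clonotypes, or 3.73%, 9.90%, 4.76% and 2.86%, against 2.71%, 3.02%, 2.33% and 3.44% in other TRBV. NOD 2 stood out and Tet2KO NOD 2 was below its other TRBV. The log2 difference was 0.90 (SE 0.38, edgeR adjusted p = 0.58), and 0.46 without NOD 2. TRAV5-4 had 4.56%, 8.91%, 11.9% and 2.86% and TRAV6N-7 had 6.64%, 0.990%, 7.14% and 8.57%. Pools of 1 genotype differed widely in the first, and so did the NOD pools in the second. TRAV6N-7 came from 16, 1, 3 and 3 clonotypes. Both Tet2KO pools were above both NOD pools there, and 38% of the 50 segments tested within TRBV2 likewise did not overlap. Neither TRAV5-4 nor TRAV6N-7 passed edgeR's test against other TRBV (adjusted p of 0.91 and 0.97). TRAV16N had 5.39% and 5.94% in the NOD pools and 2.38% and 2.86% in the Tet2KO pools, from 1 clonotype in each of the latter, beside 5.16%, 5.84%, 5.25% and 6.58% in others. TRAV5N-4 ran from 2.86% to 4.76%.

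The 5 leading TRAJ were TRAJ40, TRAJ31, TRAJ48, TRAJ49 and TRAJ45, at mean shares of 6.36%, 6.07%, 5.64%, 5.26% and 4.79% in TRBV2 and 4.47%, 4.06%, 3.15%, 4.48% and 3.93% in others. TRAJ48 was in 6.22%, 3.96%, 9.52% and 2.86% of TRBV2 clonotypes, above other TRBV in 3 of 4 libraries (log2 difference 0.86, SE 0.34, edgeR adjusted p = 0.58). TRAJ31 was in 7.47%, 3.96%, 7.14% and 5.71%, against 3.94%, 3.64%, 3.85% and 4.80% in others (log2 difference 0.70, SE 0.31, edgeR adjusted p = 0.58, and 0.37 without NOD 1). These were the only 3 segments, with TRAV21-DV12, that were higher in TRBV2 at an unadjusted p below 0.05. TRAJ18 and TRAJ17 were lower at that level, with 10 and 3 TRBV2 clonotypes in all.

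**Figure D4:**
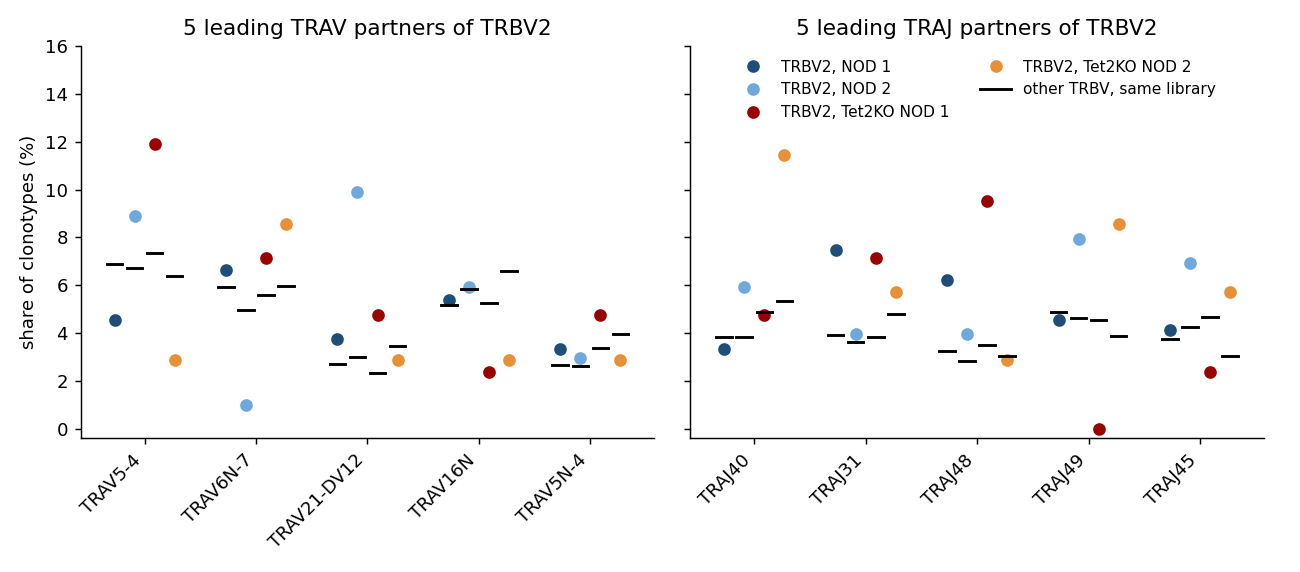
Share of clonotypes (%) with each of the 5 leading TRAV (left) and TRAJ (right) partners of TRBV2, with TRBV2 as a coloured point for each library and other TRBV in the same library as a black bar. TRAJ31 points lie above their bars in 4 of 4 libraries, and TRAV21-DV12 reaches 9.90% in NOD 2.

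By family and position the alpha partners varied between pools. TRAV6 family segments were in 15.4% ± 1.2 of TRBV2 clonotypes (SD, n = 4) and 14.97% ± 0.25 of others. TRAV7 family segments were in 9.13% and 9.90% of TRBV2 clonotypes in the NOD pools and 19.0% and 22.9% in the Tet2KO pools, from 22, 10, 8 and 8 clonotypes, against 12.0%, 12.9%, 11.4% and 11.7% of others. The genotypes did not overlap, and TRBV2 was below others in NOD and above in Tet2KO, which was not tested for the family. The TRAV9, TRAV13 and TRAV16 families did not overlap either, with both Tet2KO pools below both NOD pools. Their Tet2KO values came from 3 and 1, 2 and 1, and 1 and 1 clonotypes in that order. The TRAV5, TRAV6, TRAV12 and TRAV14 families overlapped. Of the 50 segments tested within TRBV2, 38% did not overlap between genotypes. The TRAV5 family had 13.3% and 11.6% in TRBV2 and others, the TRAV9 family 6.97% and 8.10%, the TRAV12 family 6.10% and 5.59%, the TRAV13 family 5.74% and 8.60%, the TRAV14 family 6.84% and 7.88% and the TRAV16 family 4.14% and 5.71%. TRAV/DV segments had 7.34% and 6.05%. TRAJ58 to TRAJ40, at the V-proximal end of the TRAJ array, were in 44.7% ± 5.7 and 41.6% ± 0.4, and TRAJ20 to TRAJ2, at the distal end, in 17.4% ± 2.2 and 19.0% ± 1.2. Families with separate D and N copies rest on near-identical segments that the caller may exchange.

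Receptors of invariant T cells were not found among TRBV2 clonotypes. The invariant NKT type (a TRAV11 family segment with TRAJ18) was found in 0 of 419 TRBV2 clonotypes, which allows a share of up to 0.716%, and in 0.38% ± 0.10 of others (SD, n = 4). The MAIT type (TRAV1 with TRAJ33) was also found in 0 of 419, against 0.091% ± 0.095 of others. At this number neither absence differed detectably from the share in other TRBV. TRAV16 family with TRAJ42, known from receptors for a beta cell antigen of CD8 T cells in NOD mice, was found in 1 TRBV2 clonotype, in NOD 1, against 0.83% ± 0.08 of others.

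Within TRBV2 the genotypes were compared over 50 segments with at least 10 clonotypes. None passed (0%) in edgeR's quasi-likelihood test or in DESeq2, with 5 (10%) at an unadjusted p below 0.05 in edgeR, all lower in Tet2KO NOD, and none in DESeq2. They were TRBJ2-7, TRBD2, TRAJ57, TRAV13-1 and TRAJ12. TRAJ57 was in 11 of 241 and 5 of 101 NOD clonotypes and in 0 of 77 in Tet2KO NOD, which allows up to 3.90%, beside 3.10%, 3.52%, 2.45% and 3.44% in other TRBV (edgeR adjusted p = 0.37). TRAV13-1 was in 11, 2, 0 and 0 clonotypes and TRAJ12 in 10, 1, 0 and 0. Shares of 19 of the 50 segments (38%) did not overlap between genotypes, 13 lower and 6 higher in Tet2KO NOD. Among all splits of 4 unlike values into 2 against 2, a fraction of 0.333 has no overlap. With 77 Tet2KO NOD clonotypes the test recovered 1.04% of segments changed 2-fold and 13.3% of those changed 3-fold in simulated data, so such changes in partners could seldom be called at this depth. The difference between TRBV2 and other TRBV in the genotype effect passed for none of 78 segments (0%). In edgeR 7 (8.97%) had an unadjusted p below 0.05, 3 higher (3.85%) and 4 lower (5.13%), and in DESeq2 3 had. On simulated data this test recovered 0.667% of segments changed 2-fold and 5.33% of those changed 3-fold. Such differences could thus seldom be called.

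TRAV21-DV12 and TRBJ2-7 met in the same receptors. Of the 22 TRBV2 clonotypes with TRAV21-DV12, 13 used TRBJ2-7 (59.1%), against 63 of 397 TRBV2 clonotypes with another TRAV (15.9%) and 48 of 192 clonotypes of other TRBV with TRAV21-DV12 (25.0%). By library these were 8 of 9, 4 of 10, 0 of 2 and 1 of 1, beside 20 of 91, 19 of 48, 3 of 20 and 6 of 33 in other TRBV with TRAV21-DV12. The gap from other TRBV thus lay in NOD 1, while in NOD 2 the shares were 40% and 39.6%. TRBV2 clonotypes with another TRAV used TRBJ2-7 in 42 of 232, 16 of 91, 3 of 40 and 2 of 34. From these, TRBV2 with TRAV21-DV12 differed in NOD 2 too, at 40% and 17.6%. This group was picked out after its values were seen and was not tested. The TRBD2 stretch CTGGGG was present in 10 of the 13 (76.9%), against 25 of 63 TRBV2 receptors with TRBJ2-7 and another TRAV (39.7%) and 19 of 48 of other TRBV with TRAV21-DV12 and TRBJ2-7 (39.6%). The 13 used 8 TRAJ, led by TRAJ57 in 4, and had loops of 13 to 16 residues. Among them 3 had 2 or more cells, all in NOD 1. Leaving all TRAV21-DV12 receptors aside, TRBJ2-7 was still in 18.1%, 17.6%, 7.50% and 5.88% of TRBV2 clonotypes, so the genotypes still did not overlap without them. The 3 larger clones are shown, with the bases between the germline V and J matches in capitals.
NOD 1, 4 cells, TRAJ32: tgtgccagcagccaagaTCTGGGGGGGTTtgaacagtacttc
NOD 1, 3 cells, TRAJ57: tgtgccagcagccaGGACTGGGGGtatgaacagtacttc
NOD 1, 2 cells, TRAJ57: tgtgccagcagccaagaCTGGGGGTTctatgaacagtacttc

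No TRBV2 clonotype was shared between libraries, and 34 of 7143 distinct clonotypes of all TRBV were. Of 404 distinct TRBV2 CDR3 amino acid sequences, 4 occurred in 2 libraries each and none in more, in each case from different nucleotide sequences. In 3 of the 4 the alpha chains differed. In the fourth, from NOD 2 and Tet2KO NOD 2, both loops had identical residues, with TRBJ2-7, TRAV21-DV12 and TRAJ45, and each chain differed between the libraries in silent bases. The same CDR3 alpha residues occurred once more, in a TRBV2 and TRBJ2-7 clonotype of NOD 1 whose CDR3 beta differed by 1 residue, and in no clonotype of another TRBV. It was the only 1 of 417 alpha loops of TRBV2 clonotypes found in over 1 library, and its 3 copies had 3 different nucleotide sequences. Each was a single cell, and no barcode of the pair was called in another library. Beta loops are given first, with the bases between the V and J matches in capitals, then the alpha loops.
NOD 1 beta: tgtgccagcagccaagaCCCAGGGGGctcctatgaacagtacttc
NOD 2 beta: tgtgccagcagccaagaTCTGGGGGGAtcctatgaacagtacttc
Tet2KO NOD 2 beta: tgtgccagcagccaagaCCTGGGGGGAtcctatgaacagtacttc
NOD 1 alpha: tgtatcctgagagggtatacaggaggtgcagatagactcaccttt
NOD 2 alpha: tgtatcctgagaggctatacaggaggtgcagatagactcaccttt
Tet2KO NOD 2 alpha: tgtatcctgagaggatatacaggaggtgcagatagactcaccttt

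The other 3 shared beta loops had unlike alpha chains. A loop of 13 residues with TRBJ2-7 was found in NOD 1 (with TRAV12N-2 and TRAJ52) and Tet2KO NOD 2 (with TRAV5-1 and TRAJ30). A loop of 15 residues with TRBJ2-7 was found in NOD 1 (TRAV7-3, TRAJ7) and NOD 2 (TRAV6D-6, TRAJ31), and 1 of 14 residues with TRBJ1-3 in NOD 1 (TRAV14-1, TRAJ22) and NOD 2 (TRAV12N-2, TRAJ57). The first pair shows how different bases gave the same residues.
NOD 1, 13 residues: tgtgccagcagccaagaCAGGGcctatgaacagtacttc
Tet2KO NOD 2, 13 residues: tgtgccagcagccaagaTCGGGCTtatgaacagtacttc

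The share of clonotypes with 2 or more cells was lower in TRBV2 than in other TRBV. Clonotypes of 2 or more cells numbered 20 of 241 in NOD 1 (8.30%, Wilson 95% interval 5.44 to 12.5), 9 of 101 in NOD 2 (8.91%, 4.76 to 16.1), 7 of 42 in Tet2KO NOD 1 (16.7%, 8.32 to 30.6) and 4 of 35 in Tet2KO NOD 2 (11.4%, 4.54 to 26.0). In other TRBV the shares were 13.9%, 13.4%, 19.0% and 14.9%. TRBV2 was lower in 4 of 4 libraries, by 3.99 percentage points ± 1.38 (SD, n = 4, exact two-sided sign-flip p = 0.125, the smallest possible). Among the 12 TRBV with at least 30 clonotypes in each library, TRBV2 had the lowest mean share, 11.3% ± 3.8 (SD, n = 4). TRBV29, TRBV12-2+TRBV13-2 and TRBV31 were close, at 12.8% ± 7.9, 13.0% ± 3.1 and 13.5% ± 4.0, and TRBV15 was the highest, at 21.1% ± 1.6. Clonotypes of 5 or more cells were 1, 1, 2 and 2 in TRBV2, or 0.415%, 0.990%, 4.76% and 5.71%, against 3.91%, 2.70%, 5.48% and 3.03% in others. By that share TRBV2 was above others in Tet2KO NOD 2 and below them in the rest. Mean cells per clonotype went the same way, with 1.63 in TRBV2 and 1.39 in others in Tet2KO NOD 2. Whether TRBV2 cells were missed at their lower UMI counts, which would bear on clonotype size, was not tested. The largest TRBV2 clonotype had 11, 7, 7 and 14 cells. Other TRBV reached 76, 41, 43 and 22, but among 3353, 1592, 857 and 958 clonotypes, and a maximum rises with the number drawn.

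Between genotypes, expanded TRBV2 clonotypes were compared at an equal number of 1392 paired cells, as in Tet2KO NOD 2 (mean of 200 draws). Their share was then 4.42% and 8.27% in the NOD pools and 16.9% and 11.4% in the Tet2KO pools. The difference was 7.82 percentage points (NOD 6.34 ± 2.72, Tet2KO NOD 14.2 ± 3.87, SD, n = 2 pools each, exact permutation p = 0.333, the smallest possible). It was 5.09 points without Tet2KO NOD 1 and 5.44 with no thinning. Both Tet2KO NOD pools were above both NOD pools, and so they were in other TRBV thinned alike, at 12.3% and 12.1% against 18.6% and 14.9%. Counted by cells and without thinning, 59 of 280, 28 of 120, 25 of 60 and 26 of 57 TRBV2 cells were in such clonotypes, or 21.1%, 23.3%, 41.7% and 45.6%, against 45.3%, 41.5%, 55.1% and 39.0% in other TRBV. TRBV2 was thus above other TRBV by this measure in Tet2KO NOD 2, and the difference averaged -12.3 points over the libraries (exact sign-flip p = 0.25). In Tet2KO NOD 2 a single clonotype made up 14 of the 26 cells. At 1392 paired cells per library the share of TRBV2 cells was 28.7 points higher in Tet2KO NOD (exact permutation p = 0.333, the smallest possible). Without thinning, other TRBV overlapped between genotypes by this measure. Reads and UMIs were not matched.

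**Figure D5:**
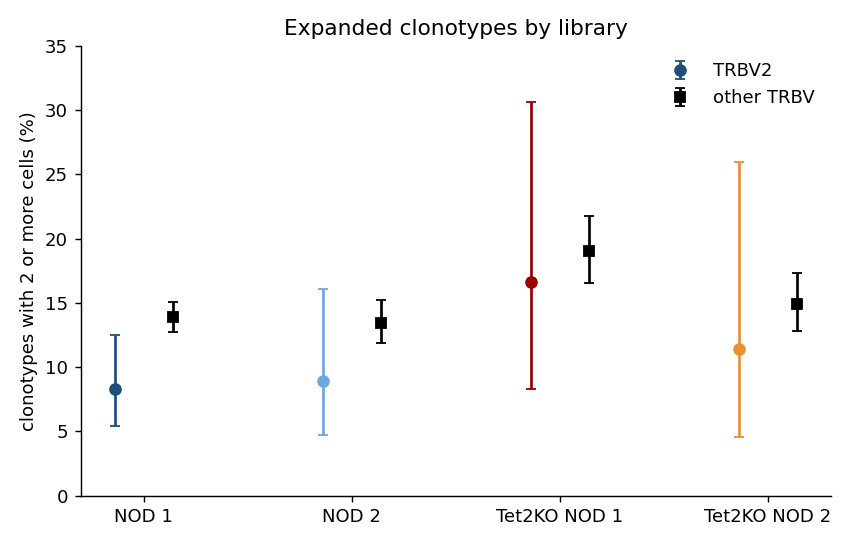
Share of clonotypes with 2 or more cells (%) in each library, for TRBV2 (coloured circles) and other TRBV (black squares), with Wilson 95% intervals that cover counting error only. The TRBV2 values, 8.30% to 16.7%, lie below those of other TRBV in 4 of 4 libraries, and each TRBV2 interval except that of NOD 1 reaches past the other value.

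The largest TRBV2 clonotype of each library joined a TRBJ1 segment, TRBJ1-3 in both Tet2KO pools, and none joined TRBJ2-7. Among all TRBV2 clonotypes the mean shares were 37.4% for TRBJ1 and 14.1% for TRBJ2-7, and 4 clonotypes are too few to compare with these. In NOD 1 the largest had 11 cells (3.93% of TRBV2 paired cells) with TRBJ1-2, TRAV5N-4 and TRAJ12. The next 2 had 4 cells each, both with TRBJ2-7, 1 with TRAV21-DV12 and TRAJ32 and 1 with TRAV6N-7 and TRAJ44. In NOD 2 it had 7 cells (5.83%) with TRBJ1-4, TRAV8D-2 and TRAJ48, followed by clonotypes of 3 cells, of which the pair named by the sort order used TRBJ1-6. In Tet2KO NOD 1 it had 7 cells (11.7%) with TRBJ1-3, TRAV5N-4 and TRAJ42, followed by 5 cells with TRBJ2-7, TRAV8D-1 and TRAJ24 and 4 with TRBJ2-3, TRAV9N-4 and TRAJ56. In Tet2KO NOD 2 it had 14 cells (24.6%) with TRBJ1-3, TRAV13-2 and TRAJ37, followed by 5 cells with TRBJ1-5, TRAV5-1 and TRAJ23 and 4 with TRBJ1-1, TRAV14N-3 and TRAJ45. The beta loops of the 4 largest are shown in the same way, and the pooled mice they came from are not known.
NOD 1, 11 cells: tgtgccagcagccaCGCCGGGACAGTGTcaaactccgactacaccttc
NOD 2, 7 cells: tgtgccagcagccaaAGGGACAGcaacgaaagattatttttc
Tet2KO NOD 1, 7 cells: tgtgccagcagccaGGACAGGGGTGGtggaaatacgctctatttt
Tet2KO NOD 2, 14 cells: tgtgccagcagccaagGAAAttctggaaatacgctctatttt

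Cells with more than 1 chain were checked, since they can be doublets. TRBV2 contigs lay in cells with over 1 productive TRB in 9.04%, 9.79%, 1.43% and 5.97%, against 11.2%, 8.51%, 6.88% and 7.86% of other TRB contigs, and the second TRB of the 49 such cells was most often TRBV12-2+TRBV13-2, in 16. More than 1 TRA was found in 12.9%, 12.7%, 11.5% and 11.5% of TRBV2 contigs with a TRA and in 14.3%, 14.6%, 11.8% and 13.7% of others. No TRA was found for 32, 9, 9 and 6 TRBV2 contigs, or 9.33%, 6.29%, 12.9% and 8.96%. Of 81 barcodes called as cells in over 1 library, 3 held a TRBV2 contig in NOD 1, 1 in Tet2KO NOD 1 and none in the others, and no tested quantity or named feature changed direction when these cells were left out.

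Nonproductive TRB rearrangements of the same cells were compared because they are carried along without being expressed as receptors and were not used to choose TRBV2. Distinct nonproductive TRBV2 rearrangements numbered 15 of 612 in NOD 1 (2.45%, Wilson 95% interval 1.49 to 4.00), 11 of 304 in NOD 2 (3.62%, 2.03 to 6.36), 4 of 153 in Tet2KO NOD 1 (2.61%, 1.02 to 6.53) and 4 of 166 in Tet2KO NOD 2 (2.41%, 0.941 to 6.03). The genotypes overlapped, at 3.03% ± 0.83 and 2.51% ± 0.14 (SD, n = 2 pools each), with a log2 fold change of -0.18 (edgeR adjusted p = 0.97). None of 22 TRBV passed (0%), and none had an unadjusted p below 0.05 in edgeR or DESeq2; the smallest were 0.054 for TRBV13-1, 0.084 for TRBV19 and 0.17 for TRBV12-1 in edgeR. Of the TRBV2 contigs counted, 3, 6, 2 and 4 were not full length, so some may be cut-off copies of an expressed chain.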

How the data were processed

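The authors deposited 4 contig tables with whole-number counts of reads and UMIs for each contig and its length in bases (another unit, not used in a test), per the file headers. Cell Ranger 7.0.1 and the build GRCm38 (mm10) are named in the submitters' processing notes, and the V(D)J segment set was not given in those notes or other sources used here. The protocol in the labels describes nuclei and other assays of the study. Cells were barcodes flagged as cells, and those with over 1 productive TRB were left out of clonotypes, with no other doublet caller. Where a cell had several TRA, the TRA with most UMIs was used. Clonotype counts per segment, word or nonproductive TRBV were tested with edgeR 4.0.16 (quasi-likelihood, R 4.3.3), with the number of clonotypes as library size, with Benjamini-Hochberg adjustment across every feature kept. DESeq2 1.42.0 was an alternative. Comparisons with other TRBV and their interaction with genotype had the library as a block and kept features with an expected TRBV2 count of at least 5. The comparison of genotypes kept features with a total of at least 10. Standard errors were log2 fold change over the square root of F. Values per library were tested by exact permutation. Hydropathy left out loops under 7 residues. The edgeR fits of segments were tested on simulated data with known changes. DESeq2 and the fits of words and nonproductive TRBV were not. GRCm38 sequence came from NCBI RefSeq and segment positions from GENCODE. Germline matches were the longest common start with the V end and the longest common end with the J start.

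The segment, its lists and its partners were chosen with earlier results of these data known. Named features were the 4 TRBJ, both TRBD, 5 TRAV and 5 TRAJ with the highest mean share in TRBV2, segments passing a test or else the 3 with the smallest p, the 5 commonest words, the 3 largest clonotypes of each library, up to 5 CDR3 found in several libraries, and 3 TRBV most like TRBV2 by each measure. TRAV21-DV12 with TRBJ2-7, the D stretches and the UMI counts were added after the values were seen. Other alternatives counted each cell once, kept cells with several TRB, defined clonotypes by TRB alone, left out shared barcodes or a library, used TMM factors, or changed the filter. Numbers of receptors limit precision, and intervals cover counting error only. Python 3.11.15, numpy 2.4.6, pandas 2.3.3, scipy 1.17.1 and matplotlib were used.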

Additional observations from a re-analysis of the deposited data

Results flagged for a closer look

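Of the segments named, 3 differed from other TRBV in opposite directions by genotype, above 0 in both NOD libraries and below 0 in both Tet2KO NOD libraries. Over the 78 segments tested these were the 3 with that pattern (3.85%), and 3 others (3.85%), TRAJ42, TRAV7D-2 and TRAV7N-5, had the reverse one. TRBD2 was named 3.12 percentage points more often in TRBV2 in NOD and -5.13 points in Tet2KO NOD (means of 2 libraries), with an adjusted p of 0.41 for the difference between them in edgeR's test. TRAV16N differed by 0.167 points in NOD and -3.29 points in Tet2KO NOD (adjusted p = 0.81), from 1 TRBV2 clonotype in each Tet2KO NOD library. TRAJ57 differed by 1.45 points in NOD and -2.95 points in Tet2KO NOD (adjusted p = 0.41), where no TRBV2 clonotype held it.

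Productive TRBV2 contigs also occurred in barcodes not called as cells, which no comparison used. There were 15 in NOD 1 of 697 productive TRB contigs there (2.15%), 9 of 161 in NOD 2 (5.59%), 3 of 146 in Tet2KO NOD 1 (2.05%) and 7 of 75 in Tet2KO NOD 2 (9.33%).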

How the results depend on the processing

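Of 74 alternative values of the 8 quantities compared by library, 70 kept their direction, 3 turned and 1 was at 0, the difference in median TRBV2 length between genotypes, and none of the counts of segments or of nonproductive TRBV called changed from 0. Leaving out 1 library turned the genotype difference in TRBV2 length (-0.0901 to 0.153 residues) and in hydropathy (-0.382 to 0.0889 units). The count of words called was 0 to 1 when a library was left out and 2 with no filter (1786 words tested). Log2 differences from other TRBV near 0 turned sign: leaving out a library, TRBJ2-5 ran from -0.0037 to 0.10, TRBJ2-1 from -0.029 to 0.18, TRBD2 from -0.22 to 0.44, TRAV5-4 from -0.33 to 0.305, TRAV6N-7 from -0.42 to 0.25, TRAJ49 from -0.095 to 0.46 and TGG from -0.15 to 0.28. With TMM factors TRBJ2-5 was at -0.042 and TGG at -0.34. With each cell counted once TRBJ2-5 was at -0.29, TRBJ2-1 at -0.39, TRAJ40 at -0.048, TRAJ49 at -0.048 and TGG at -0.39. Nonproductive TRBV2 was at 0.062 with each cell counted once, -0.52 to 0.033 leaving out a library, and -0.94 with full-length contigs alone, which was added after seeing the data. The causes were not tested.

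Set numbers 1 and 2 occur in both genotypes, and the labels do not say what a set shares. Same-numbered libraries deviated together with a correlation of 0.0056 over the segments in TRBV2 and 0.19 over nonproductive TRBV. With the set as a replicate block the count of segments called in TRBV2 was 0, with 2 at an unadjusted p below 0.05 against 5 without it, and the difference in expanded clonotypes was again 7.82 points (exact p = 0.5, the smallest 2 pairs allow).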
